A study of Mus musculus with 12 samples.

Results

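The cytosolic ribosomal protein genes are described here as 49 mouse genes, 26 of the large and 23 of the small ribosomal subunit, out of 18193 genes named on the array. A gene was taken where a probe set carried a single gene symbol and that symbol had the form Rpl or Rps with a number and an optional ending, or was Rpsa, Rplp0, Rplp1 or Rplp2, and 105 probe sets met this rule. Rps4l is counted by its symbol, while RefSeq lists it as a transcribed pseudogene. The 4 groups were treated and untreated cells of mice lacking Stat5a and Stat5b in blood cells (knockout), and treated and untreated cells of control mice that kept both genes, with 3 arrays each. The labels give neither the age of the mice, nor the means of deletion, nor whether the arrays came from separate animals or pools, so p-values measure the spread between these arrays, which may be technical. The treatment is labelled with the letters GMP, which also stand in titles of untreated arrays, so it is called only the treatment, while the title of the series names GM-CSF, a cytokine that drives granulocyte and macrophage formation and signals through STAT5. On dates 1 and 3 the titles hold GMP for all 4 groups, with plus or minus signs. The letters may therefore name the cells, granulocyte-macrophage progenitors, rather than an agent. The arrays were dated to 3 days, each with 1 array of every group, and are called by date 1, 2 or 3. The title of the knockout treated array of date 2 holds a number that differs from that of its 3 companions, with no explanation.

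Ribosomal proteins build the large and small subunits of the ribosome together with ribosomal RNA, and growing cells make them in nearly equal amounts. Their messenger RNAs begin with a C followed by a run of pyrimidines, the terminal oligopyrimidine tract, and their translation rises and falls with the activity of the growth kinase mTOR, while their amount usually changes less. In blood formation they are known from human Diamond-Blackfan anaemia, in which loss of a single copy of a ribosomal protein gene impairs red cell production.

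RefSeq promoter sequence (build GRCm38.p6) was found for 43 of the 49 genes, at 51 start sites. The pentamer CTTTC, searched on the gene's strand within 30 bases either side of the start, was present at 14 of these 51 starts (27.5%), and at 7.93% of all 32851 starts in the table. The motif CCGGAAG, the letters that factors of the ETS family recognise, was found on either strand of the 300-base promoter at 21 of the 51 starts (41.2%) and at 8.86% of all starts. TATAAA within 40 bases before the start, on the gene's strand, was present at 1.96% of these starts and at 2.31% of all starts. CTTTC ends with the letter that begins CCGGAAG, so matches of these motifs could share a base, which was not checked. A match is a description of the sequence only. The windows below run from 15 bases before the start to base 15 of the transcript, for the 3 genes that passed a test of treatment (Rps24, Rpl12 and Rpl41) and for the 3 genes of highest mean signal that have a promoter entry (Rpsa, Rps28 and Rpl38), none of which passed a test, with CTTTC in capitals.
Rps24, chr14:24490663-24490692, plus strand: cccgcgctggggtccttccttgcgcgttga
Rpl12, chr2:32961697-32961726, plus strand: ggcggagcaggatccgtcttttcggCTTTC
Rpl41, chr10:128549154-128549183, minus strand: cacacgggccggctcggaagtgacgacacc
Rpsa, chr9:120127751-120127780, plus strand: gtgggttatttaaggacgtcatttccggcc
Rps28, chr17:33824548-33824577, minus strand: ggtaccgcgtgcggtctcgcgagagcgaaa
Rpl38, chr11:114668565-114668594, plus strand: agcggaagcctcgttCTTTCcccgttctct
In Rpl38 the capitals start at the annotated first base and in Rpl12 they lie further into the transcript, and the windows of Rps24 (the upstream of its 2 starts), Rpl41, Rpsa and Rps28 hold no CTTTC.

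Of the 49 genes, 47 passed the filter on dim values and were tested, 25 of the large and 22 of the small subunit, with 96 passing probe sets. Rpl3l, the muscle form of Rpl3, had signals of 3.99 to 53.3 and Rps16 had signals of 0.921 to 17.7, below the floor of 70.5 on every array. For 32 of the 47 genes the mean signal of the set that stood for the gene was over 5000 units, on arrays scaled to a trimmed mean near 500. The median gene of the family lay between the 98.1st and the 98.9th percentile of each array's probe sets tested. Signals of different probe sets depend on the probes as well as on the transcripts, so this places the sets on the array and does not rank messenger RNAs. Rpsa, a small subunit protein also known as the laminin receptor precursor, read 21450, 65857 and 21152 units on the knockout treated arrays of dates 1, 2 and 3, and 17515, 62541 and 20909 on the knockout untreated arrays. It read 20060, 120891 and 19013 units on the control treated arrays, and 18489, 67378 and 17854 on the control untreated arrays. In every group the array of date 2 was far above the other arrays, and on dates 1 and 3 the groups lay close together. On dates 1 and 3 the Rpsa set read 90.2% to 97.0% of the brightest set on its array, and on date 2 it read 82.9% to 93.6%. Whether such bright sets were near the upper limit of the scanner was not tested.

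**Figure D1:**
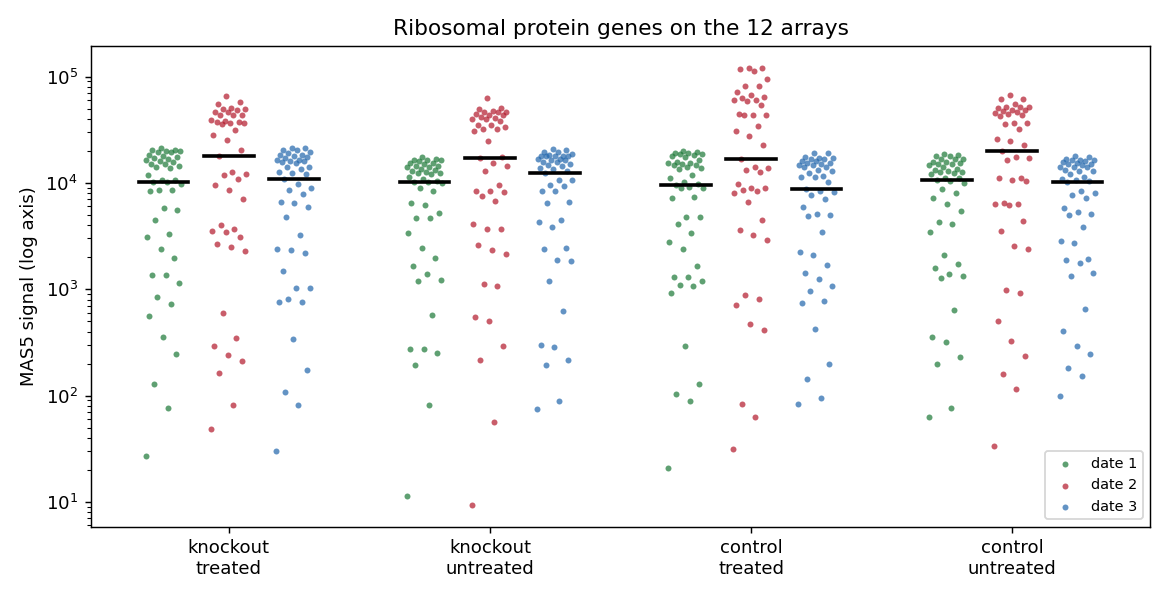
MAS5 signal (log axis) of the 47 tested ribosomal protein genes on each of the 12 arrays, grouped by genotype and treatment and coloured by date, with a bar at the median of each array. The date 2 arrays reach higher than the others in all 4 groups, while the groups overlap within a date.

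The first question was whether treatment changed these genes in cells without Stat5a and Stat5b. In knockout cells 1 of 47 genes rose and 2 fell with treatment (limma, Benjamini-Hochberg adjusted p under 0.05 over 11815 genes), where 6.73% of all genes tested rose and 4.45% fell. The median log2 change of the 47 genes was 0.03, against -0.02 for all genes, and 39 of the 47 changes lay within 0.5 of 0. The changes ran from -1.31 to 1.30, and 95% confidence intervals had a median width of 0.594 on each side. At an unadjusted p under 0.05, 1 gene was higher and 3 were lower, where 27.3% of all genes passed in either direction. In all, 18 of 47 genes (38.3%) had the same sign on all 3 dates, against 51.5% of all genes, and the median change was 0.22 on date 1, 0.04 on date 2 and -0.11 on date 3.

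In control cells 1 of 47 genes rose and 0 fell with treatment, where 4.21% of all genes rose and 2.56% fell. The median log2 change was 0.07, against -0.04 for all genes, and 41 of 47 changes lay within 0.5 of 0, in a range from -0.73 to 1.18. At an unadjusted p under 0.05, 2 genes were higher and 1 was lower, the 2 being Rps24 and Rpl27a and the other Rpl41, where 23.3% of all genes passed in either direction. The same sign on all dates was seen for 27 genes (57.4%), against 50.7% of all genes, and the date medians were 0.07, 0.28 and 0.01. None of the 32 genes with a mean signal over 5000 passed the test in any comparison, and their changes with treatment ran from -0.42 to 0.22 in knockout cells and from -0.52 to 0.39 in control cells. This split goes by the set that stood for a gene. For 10 genes of the family another passing set was brighter, and Rps24, Rpl41 and Rps20 had brighter sets with mean signals of 12206, 25822 and 28707 units. Whether bright and dim genes differ was not tested.

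**Figure D2:**
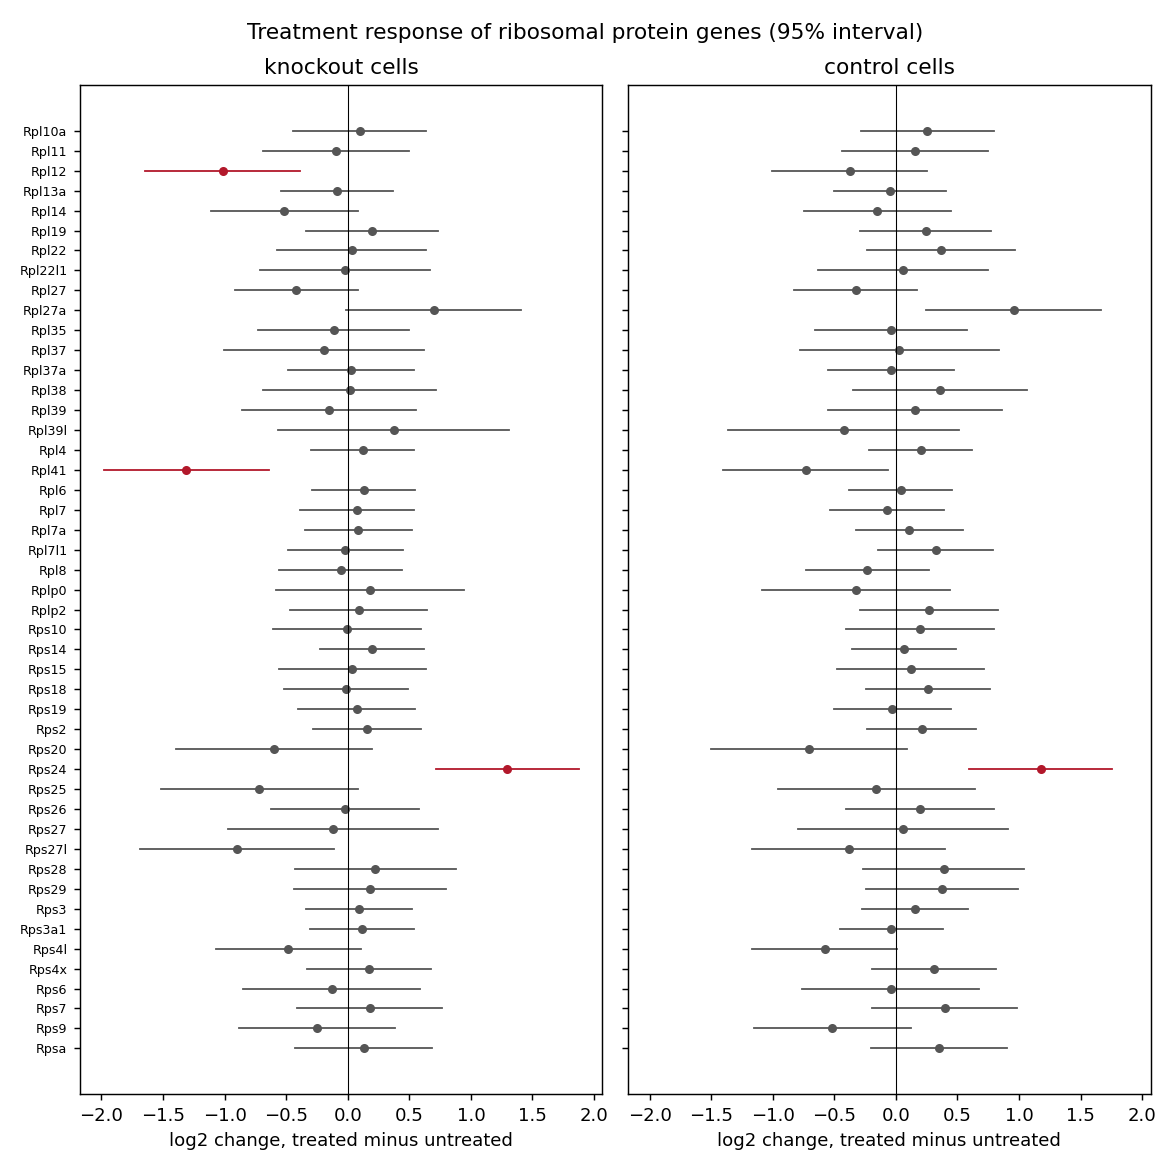
Log2 change with treatment (treated minus untreated, x axis) of each of the 47 tested genes in knockout cells (left) and control cells (right), as points with 95% confidence intervals from the limma fit. Genes with an adjusted p under 0.05 are red: Rps24, Rpl12 and Rpl41 on the left and Rps24 on the right, and most other intervals include 0.

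Rps24, a small subunit protein whose human gene is mutated in some families with Diamond-Blackfan anaemia, was the gene that rose in both genotypes. Its signal was 558, 598 and 751 units on the knockout treated arrays, against 273, 289 and 195 on the knockout untreated arrays. It was 1070, 809 and 737 units on the control treated arrays, against 355, 501 and 293 on the control untreated arrays. All treated arrays were above all untreated arrays of the same genotype. The log2 change was 1.30 ± 0.26 (SE, adjusted p = 0.0136) in knockout cells and 1.18 ± 0.26 (adjusted p = 0.0274) in control cells, and the difference of the responses was 0.12 with a 95% interval from -0.70 to 0.94. Leaving out the knockout treated or the knockout untreated array of date 3 took the adjusted p of the knockout response to 0.0604 and 0.0738. Leaving out the control treated or the control untreated array of date 1 or date 3 took that of the control response to 0.0913 to 0.133.

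The probe set that stood for Rps24 had a mean signal of 536 units, and none of the other 4 passing sets of the gene passed the test of treatment. These 4 sets are marked on the array design as able to bind other transcripts. The set with a mean signal of 12206 units read 7897, 16980 and 7886 on the knockout treated arrays, against 6908, 20181 and 8751 on the knockout untreated arrays. It read 8086, 29257 and 7067 on the control treated arrays, against 6920, 20742 and 5794 on the control untreated arrays, so that treated and untreated arrays overlapped in both genotypes. Its log2 change was -0.07 in knockout cells, opposite in sign to the standing set and of mixed sign over the dates. In control cells it was 0.34 (adjusted p = 0.492 over all sets), with 0.22, 0.50 and 0.29 on dates 1, 2 and 3, above 0 on each. The other 3 sets had changes between -0.03 and 0.10 in knockout cells and between 0.04 and 0.19 in control cells. Which of these sets follows the Rps24 message was not tested.

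Rpl41, which encodes a very short basic peptide of the large subunit, fell in knockout cells. Its signal was 721, 348 and 765 units on the knockout treated arrays, against 1185, 1065 and 2432 on the knockout untreated arrays, with no overlap. It was 925, 884 and 966 units on the control treated arrays, against 1323, 974 and 2844 on the control untreated arrays, which also did not overlap. The log2 change was -1.31 ± 0.30 (SE, adjusted p = 0.0225) in knockout cells and -0.73 ± 0.30 (adjusted p = 0.176) in control cells, and the difference of the responses, -0.58, had a 95% interval from -1.53 to 0.36. Without date 2 the knockout change was -1.18 with an adjusted p of 0.0579. Leaving out the knockout treated or knockout untreated array of date 2 or of date 3 took the adjusted p to values from 0.075 to 0.105.

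Rpl41 had 4 passing sets that did not move alike. Fitted set by set over 21363 probe sets, the standing set fell by 1.31 and a second set, with a mean signal of 3421 units, also fell by 1.31 in knockout cells (adjusted p = 0.0281 and 0.0279). The sets with mean signals of 14579 and 25822 units had log2 changes of -0.16 and -0.08 in knockout cells, and -0.20 and 0.26 in control cells. In this fit 2 of the 96 sets of the family fell and 1 rose with treatment in knockout cells, where 2.89% of all sets fell and 5.77% rose, and in control cells 1 rose and 0 fell, where 3.16% rose and 1.54% fell.

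**Figure D3:**
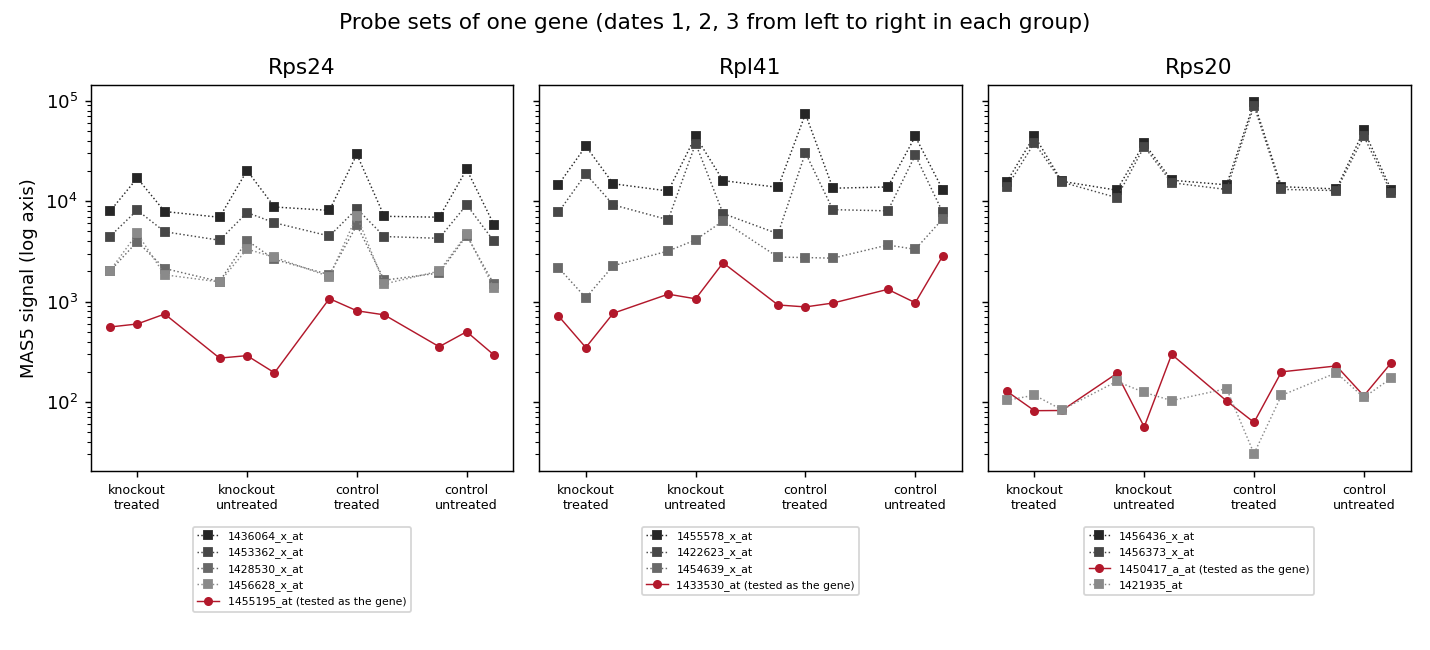
MAS5 signal (log axis) of every passing probe set of Rps24, Rpl41 and Rps20 on the 12 arrays, with dates 1, 2 and 3 from left to right in each group, and the tested set in red. The red Rps24 set is higher in treated than in untreated arrays of both genotypes, the Rps24 set at the top is higher in control treated than in control untreated arrays on each date by a smaller amount, and the sets of each gene differ in how they move on date 2.

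Rpl12, a large subunit protein at the base of the ribosomal stalk, also fell in knockout cells and had 1 passing set. Its signal was 844, 295 and 1021 units on the knockout treated arrays, against 1638, 1124 and 1185 on the knockout untreated arrays, with no overlap. It was 1293, 705 and 1407 units on the control treated arrays, against 1726, 919 and 1776 on the control untreated arrays, and these overlapped. The log2 change was -1.01 ± 0.28 (SE, adjusted p = 0.0464) in knockout cells and -0.37 ± 0.28 (adjusted p = 0.475) in control cells, with a difference of responses of -0.64 and a 95% interval from -1.53 to 0.25. In knockout cells the differences on dates 1, 2 and 3 were -0.95, -1.89 and -0.21, and in control cells -0.41, -0.38 and -0.33, below 0 on every date in both. Without date 2 the change was -0.58 with an adjusted p of 0.147, and the call held in 2 of the 12 fits that left out a single array, where the adjusted p reached 0.168.

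Rpl27a, a large subunit protein, is named because its control response came next, which was seen after its values were known. It read 1143, 3558 and 805 units on the knockout treated arrays, against 567, 2136 and 623 on the knockout untreated arrays. It read 1096, 8519 and 781 units on the control treated arrays, against 632, 2370 and 657 on the control untreated arrays. On each date the treated array was above the untreated array of its genotype. The log2 change was 0.70 ± 0.32 (adjusted p = 0.193) in knockout cells and 0.96 ± 0.32 (adjusted p = 0.106) in control cells.

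Several ribosomal proteins have a close relative encoded by another gene, and none of these pairs passed a test of treatment. Rps27l, a relative of Rps27 known in human cells as a target of p53, read 3300, 3126 and 2388 units on the knockout treated arrays, against 4715, 7578 and 4503 on the knockout untreated arrays. It read 2809, 9022 and 2076 units on the control treated arrays, against 4097, 10486 and 2729 on the control untreated arrays. The knockout arrays did not overlap between treated and untreated and the control arrays did, while within each date the treated array was the lower in both genotypes. Its log2 change was -0.90 ± 0.35 in knockout cells (unadjusted p = 0.0289, adjusted p = 0.133) and -0.38 ± 0.35 in control cells, while Rps27 itself had changes of -0.12 and 0.06.
Rpl22, an RNA-binding large subunit protein that is known from mouse lymphocyte development, had changes of 0.03 in knockout and 0.37 in control cells, and its relative Rpl22l1 had changes of -0.02 and 0.06. A dimmer passing set of Rpl22 went the other way in control cells, with 3906, 676 and 4470 units treated against 5400, 929 and 4945 untreated. In knockout cells it read 2890, 1403 and 4612 units treated against 4722, 1055 and 5610 untreated. The changes given here are those of the standing sets. Rpl7 had changes of 0.08 and -0.07, and Rpl7l1 of -0.02 and 0.32. Rps4x had changes of 0.17 and 0.31, and Rps4l, listed by RefSeq as a transcribed pseudogene and read by a dim set with a mean signal of 176 units, of -0.48 and -0.58. Rpl39 had changes of -0.15 in knockout and 0.16 in control cells, and Rpl39l, known for its use in male germ cells, of 0.37 and -0.42 at a mean signal of 45.1 units. All adjusted p-values for these genes were over 0.05.

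Among genes tied to inherited anaemia or myelodysplasia, Rps19, the gene most often mutated in human Diamond-Blackfan anaemia, read 9697, 12770 and 13970 units on the knockout treated arrays, against 10830, 9595 and 14260 on the knockout untreated arrays. It read 9641, 12788 and 12915 units on the control treated arrays, against 12260, 10700 and 12920 on the control untreated arrays. These groups overlapped fully, and the change with treatment was 0.07 ± 0.21 in knockout and -0.03 ± 0.21 in control cells. Rps14, which lies in a deleted interval of a human myelodysplastic syndrome, had changes of 0.20 ± 0.19 in knockout and 0.07 ± 0.19 in control cells. Rps26 had changes of -0.03 and 0.20, Rps7 of 0.18 and 0.39, Rps10 of -0.01 and 0.19, and Rpl11, which binds the p53 inhibitor Mdm2 when ribosome assembly fails, of -0.10 and 0.15. None of these passed the test in any comparison.

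Among landmark subunits, Rps6, the small subunit protein phosphorylated by growth-activated kinases, had changes with treatment of -0.13 ± 0.32 in knockout and -0.04 ± 0.32 in control cells. Rps3, at the entry of the messenger RNA channel, had changes of 0.09 ± 0.19 and 0.16 ± 0.19. Rpl13a, which is also known from a translational silencing complex in human myeloid cells, had changes of -0.09 and -0.05, Rpl10a of 0.10 and 0.26, Rplp2, a protein of the stalk that recruits elongation factors, of 0.09 and 0.27, and Rpsa of 0.13 and 0.35. The Rpl13a values are those of its standing set. Its brightest set, marked as able to bind other transcripts, read 20361, 107560 and 18901.7 units on control treated arrays, against 18259.5, 57256.5 and 17200.2 untreated. In knockout cells that set read 19928.5, 57726.8 and 20893.2 units treated, against 16672.8, 43633.9 and 21006.8 untreated. For Rpsa the 95% interval ran from -0.43 to 0.68 in knockout cells and from -0.20 to 0.90 in control cells, so changes of moderate size could not be told from none with 3 arrays a group.

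The next question was whether the genotype changed these genes. These comparisons share arrays with the responses above, so the values are not independent of them. Without treatment 0 of 47 genes rose and 0 fell in knockout against control cells by limma, where 0% of all genes rose and 0.0169% fell. At an unadjusted p under 0.05 a single gene was lower, against 2.22% of all genes in either direction. That gene was Rpl39l, which read 11.4, 9.39 and 75.1 units on knockout untreated arrays, against 62.4, 33.3 and 98.4 on control untreated arrays, a dim signal with groups that overlapped across dates and with the knockout array lower on each date (log2 change -1.0 ± 0.42, unadjusted p = 0.0384, adjusted p = 1). The median change was 0.001, against -0.006 for all genes, and 45 of 47 changes lay within 0.5 of 0. The date medians were -0.07, -0.16 and 0.24, and 6 genes (12.8%) had the same sign on all dates, against 26.9% of all genes.

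With treatment 0 of 47 genes rose and 0 fell in knockout against control cells by limma, where 0% of all genes rose and 0.11% fell. At an unadjusted p under 0.05 1 gene was higher and 1 lower, against 9.72% of all genes in either direction. The median change was -0.17, against 0.01 for all genes, and 34 of 47 changes were negative. By date the median was 0.10 on date 1, -0.71 on date 2 and 0.15 on date 3, so it was negative on date 2 and positive on the other dates. The same sign on all dates was seen for 9 genes (19.1%), against 32.5% of all genes.

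The higher gene was Rplp0, the stalk protein that holds the acidic proteins Rplp1 and Rplp2 on the ribosome. It read 17973, 37130 and 17627 units on the knockout treated arrays, against 15427, 9791 and 15462 on the control treated arrays, with no overlap. On date 2 its control treated signal was the lowest of its 12 values. The log2 change was 0.78 ± 0.34 (unadjusted p = 0.047, adjusted p = 0.514), made of 0.22, 1.92 and 0.19 on the 3 dates. In untreated cells it read 15269, 32041 and 16470 units in knockout and 15642, 19812 and 14802 in control cells. The lower gene was Rpl12, at -0.76 ± 0.28 (unadjusted p = 0.0223, adjusted p = 0.506), with differences of -0.61, -1.22 and -0.46 on the 3 dates.

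The treatment responses of the genotypes were then compared with each other. For 0 of 47 genes was the response higher or lower in knockout than in control cells by limma, where 0% of all genes were called in either direction, and 0 had an unadjusted p under 0.05, against 2.46% of all genes. The median difference was -0.09, against 0.03 for all genes, with date medians of 0.16, -0.37 and -0.09, and 6 genes (12.8%) had the same sign on all dates, against 27.8% of all genes. The 95% intervals had a median width of 0.840 on each side, so differences under that size could not be told from none.

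**Figure D4:**
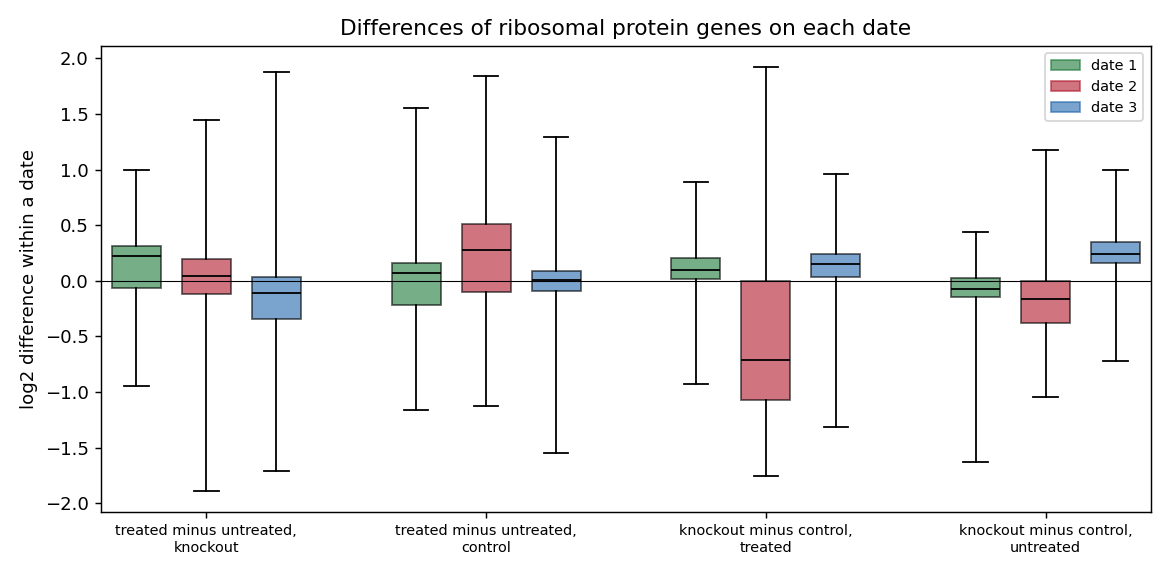
Log2 differences of the 47 genes within each date for the treatment responses of knockout and control cells and for knockout minus control in treated and untreated cells. Boxes span the middle quartiles with a line at the median and whiskers reach the lowest and highest gene, and the median of knockout minus control in treated cells is -0.71 on date 2 against 0.10 and 0.15 on the other dates.

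The date of the array moved the family more than genotype or treatment. In a fit of date and group, date took a median of 86.2% of the variance of a ribosomal protein gene over the 12 arrays and group took 2.91%, against 41.5% and 24.7% over all genes. Signals on date 2 were a median of 2.37 times those on the other dates, from 0.454 times for Rps9 to 4.98 times for Rps10, while the median over all genes was 1.0. The brightest set on an array, of this family or not, read 67520 to 145869 units on date 2, against 19055 to 23413 elsewhere. By rank the median gene of the family did not shift, at percentiles of 98.1 to 98.9 on date 2 and also on the other dates. Whether the shift is particular to this family among equally bright genes was not tested. In all 4 groups 30 of the 47 genes (63.8%) were brighter on date 2 than on either other date, against 16% of all genes, and 4 genes (8.51%), Rpl12, Rpl41, Rps20 and Rps9, were dimmer, against 18.5% of all genes. These values are those of the standing sets, and other sets of a gene could go the other way. The brightest sets of Rpl41, Rps20 and Rps9 lay at 3.39, 3.73 and 2.43 times on date 2. A dimmer set of Rpl22, whose standing set was brighter on date 2, lay at 0.221 times. Among the genes with a mean signal over 5000, 25 of 32 were brighter on date 2, with a median of 2.89 times, and among the 15 dimmer ones 5 were, with a median of 1.21 times. Rps19 and Rps6, at 0.953 and 0.997 times, were among the bright genes without this shift.

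The sets of the family took 5.04% to 6.89% of the summed signal of the date 2 arrays, against 2.38% to 2.83% of the others. The signal at the 3′ end of Actb over that at its 5′ end, a measure of how short the labelled RNA is, lay between 20.8 and 266 on date 2, against 1.14 to 2.05 elsewhere. For Gapdh this ratio lay between 28.2 and 80.7 on date 2, against 1.56 to 3.90 elsewhere. The control treated array of date 2 had both the highest Actb ratio, 266, and the highest share of signal, 6.89%, and the other date 2 arrays had ratios of 20.8 to 59.5 and shares of 5.04% to 5.40%. The part of RNA quality in the date 2 values was not tested.

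**Figure D5:**
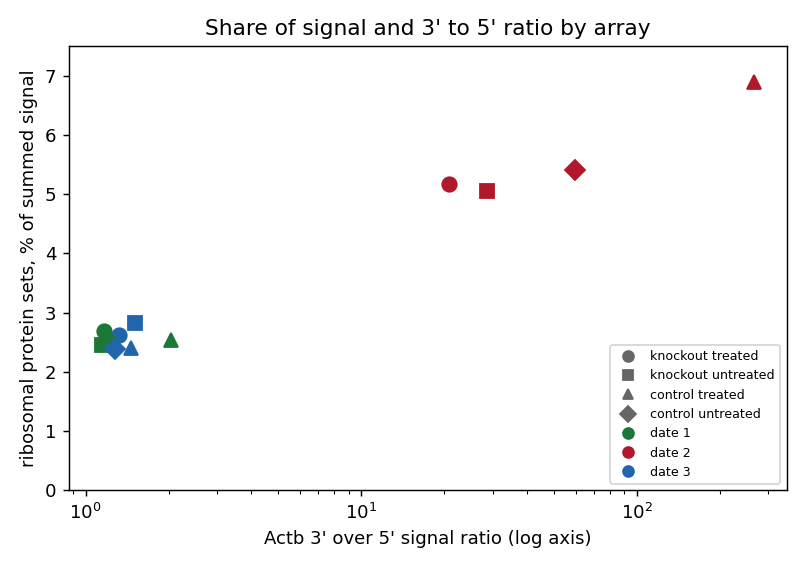
Share of the summed signal taken by the ribosomal protein probe sets (y axis, percent) against the ratio of Actb signal at its 3′ and 5′ ends (x axis, log scale) for the 12 arrays, with symbols for groups and colours for dates. The date 2 arrays lie apart at shares of 5.04% to 6.89%, and the control treated array of date 2 is highest on both axes.

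Leaving out the 4 arrays of date 2 removed the calls of Rpl41 and Rpl12 and kept that of Rps24. In that fit 1 gene of the family rose and 0 fell in control cells, and 1 rose and 0 fell in knockout cells, where 5.82% of all genes rose and 3.88% fell in control cells and 6.83% and 4.89% did in knockout cells. The median of knockout against control in treated cells was then 0.12. In knockout against control with treatment 0 genes of the family rose and 0 fell by limma without date 2, where 0.00846% of all genes rose and 0.0677% fell, and 0 passed in knockout against control without treatment or in the difference of responses.

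Many sets of the family carry the symbol of a ribosomal protein gene beside others, often pseudogenes, and stood outside the rule. There were 110 such sets, 103 of them over the floor, and they cover genes such as Rpl5, Rpl23, Rpl26 and Rpl35a. Their median log2 change with treatment was 0.02 in knockout and 0.24 in control cells, and their median in knockout against control was -0.25 with and -0.01 without treatment. On date 2 the median of knockout against control with treatment was -1.0, against 0.07 and 0.17 on dates 1 and 3, the same pattern by date as in the 47 genes.

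Other genes whose messages carry the same kind of tract, mainly elongation and initiation factors, were taken as a list of 26 genes, of which 22 were tested. By limma 0 of 22 passed in any of the 5 comparisons, while 2 in the knockout response, 1 in the control response and 2 in knockout against control with treatment had an unadjusted p under 0.05, where 27.3%, 23.3% and 9.72% of all genes did. Their median changes were 0.001 in the knockout and 0.01 in the control response. A list of 22 growth control genes around mTOR, MYC and the integrated stress response had 20 tested members. In knockout cells 4 of 20 rose with treatment and 0 fell, where 6.73% of all genes rose and 4.45% fell. In control cells 1 rose and 0 fell, where 4.21% rose and 2.56% fell. At an unadjusted p under 0.05, 4 were higher and 0 lower in knockout cells, and 5 were higher and 1 lower in control cells, where 27.3% and 23.3% of all genes passed in either direction. In the difference of the responses 0 of 20 were called by limma and 1 had an unadjusted p under 0.05, where 2.46% of all genes did. Ddit4, a stress-induced inhibitor of mTOR, rose by 2.61 ± 0.48 in knockout cells (SE, adjusted p = 0.00943). Sesn2, another stress-induced inhibitor of mTOR, rose by 2.01 ± 0.55 (adjusted p = 0.0435) in knockout and by 3.14 ± 0.55 (adjusted p = 0.0104) in control cells. Eif4ebp1, the repressor of cap-dependent translation that mTOR inactivates, rose by 1.18 ± 0.34 (adjusted p = 0.0495) and Tsc1, a brake on mTOR, by 0.97 ± 0.25 (adjusted p = 0.0388) in knockout cells. Ddit4, Eif4ebp1 and Tsc1 were not called in control cells, but none of them was called in the difference of the responses either, so a response particular to knockout cells is not shown. The median change of this list was 0.24 in knockout and 0.36 in control cells.

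Stat5a read 26.7 to 101 units on knockout arrays and 375 to 1147 on control arrays, and Stat5b 1.80 to 60.5 and 287 to 1531, as the labels state. Markers of myeloid progenitors were present on all arrays, with 11 of 11 measured genes over the floor, among them Mpo at 15309 to 111812 and Kit at 623 to 5457 units. By limma 0 of 11 passed any of the 5 tests. With treatment 6.73% of all genes rose and 4.45% fell in knockout cells, and 4.21% and 2.56% did in control cells. At an unadjusted p under 0.05, 1 marker was higher and 3 were lower in the control response, where 23.3% of all genes passed. In the knockout response 0 markers did, where 27.3% of all genes did. Of the 11 changes 9 were negative in either response, with medians of -0.30 in knockout and -0.23 in control cells. The summed signal of these markers was 83543 to 154540 units in knockout treated, 79305 to 194737 in knockout untreated, 80172 to 249853 in control treated and 82829 to 183134 in control untreated arrays. Of other lineages, 0 of 3 T and NK, 1 of 4 B, 2 of 6 erythroid, 2 of 4 megakaryocyte and 0 of 5 stromal genes were over the floor on all arrays. Over all arrays the summed signal was 1917 to 6386 units for erythroid, 973 to 4625 for megakaryocyte and 326 to 978 for B genes. It was 13.8 to 148 units for T and NK genes and 142 to 435 for stromal genes. The T cell gene Cd3e read 3.11 to 136 units. A single gene could lie far below the sum of its list, as the erythroid factor Klf1 did at 8.82 to 179 units. In such bulk samples fewer cells of a type and less RNA per cell cannot be told apart.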

How the data were processed

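RNA of 12 samples was hybridised to single-colour Affymetrix mouse arrays. MAS5 is named in the submitters' processing notes, and the deposited intensity values are linear, 1 for each of 45101 probe sets on an array. Version and scaling target are not given in the sources used here, and trimmed means (2% off either end) were 500.003 to 500.004. Gene symbols came from the platform annotation, and sets with several symbols (932) or none were not tested. A probe set entered the tests where its signal passed 70.5495 (the overall median) on 3 or more arrays. The set with the highest mean log2 value stood for a gene, with sets marked _x_at used only if no other passed. limma 3.58.1 in R 4.3.3 fitted log2(intensity + 13) on all 12 arrays with terms for group and array date, leaving 6 residual and 3.96 prior degrees of freedom. Fold changes of dim genes are understated on this scale. Benjamini-Hochberg adjustment ran over 11815 genes in each of 5 comparisons, with a threshold of 0.05. The fit was tested on simulated data. The number of arrays limits the precision. Named genes are those that passed a test, paralogue pairs, genes known from anaemia or p53 control, and landmark subunits. These members and the lists were chosen with earlier results of these data known. Alternatives changed the pseudocount, filter, probe set, normalization, block, weights and arrays. The pairing by date comes from the sample titles. Arrays of the same date deviated together from their group means (correlations across genes of 0.357 to 0.753 in 18 pairs, against -0.661 to 0.399 in 36 pairs of different dates and different groups). Deviations from a group mean cancel over the dates, so the second range is partly lowered by construction. Start windows and motifs came from a RefSeq promoter table of build GRCm38.p6. Plots used matplotlib 3.10.9 (Python 3.11.15).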

Additional observations from a re-analysis of the deposited data

How the results depend on the processing

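Across 27 settings the median change of the tested genes lay between -0.33 and 0.23 in the 5 comparisons. In control cells the count of genes that rose was 1, and it was 0 with no filter on dim sets, with the mean of all sets of a gene, with no replicate block, without date 1, without date 3, with only the groups compared fitted, and with the brightest passing set, an alternative chosen after seeing the data. The count that fell was 1, against 0, with array weights, for which the weight estimate did not reach its convergence tolerance. In knockout cells the count that rose was 1, and it was 0 with the mean of sets, no replicate block, without date 1, without date 3, only the groups compared, or the brightest set. The count that fell was 2, and it was 1 with a pseudocount of 1, no filter, the mean of sets or the brightest set, 0 with no replicate block, only the groups compared, or without date 1, date 2 or date 3, and 4 with array weights, Rps4l among them (adjusted p = 0.0428). Settings that drop a date or a group fit fewer arrays, and the cause of the other changes was not tested. With no replicate block the adjusted p of Rps24 was 0.0506 in knockout and 0.108 in control cells, that of Rpl41 0.207 and that of Rpl12 0.378, and no call in the other 3 comparisons changed. With the brightest set the Rps24 knockout change turned to -0.069 (adjusted p = 0.889). Leaving out each array in turn gave 0 to 2 genes that rose and 0 to 2 that fell in knockout cells, with medians from -0.06 to 0.17, and 0 to 1 and 0 to 0 in control cells, with medians from -0.018 to 0.23. The 2 that rose were counted without the control treated array of date 2. In the 3 other comparisons 0 to 0 passed, with medians from -0.12 to 0.08 for knockout against control without treatment, -0.30 to 0.07 with treatment and -0.29 to 0.07 for the difference of responses. Over all genes the calls ranged from 102 up and 11 down (without date 3) to 1188 and 1105 (array weights) in knockout cells, and from 34 and 6 to 1286 and 1102 in control cells. Centring arrays on their median moved the median of all genes in the knockout response from -0.02 to -0.13. The deposited values carry no background estimate, so dim genes such as Rpl39l and Rps20 are the least certain.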

Other observations

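The mitochondrial ribosomal protein genes, which build the separate ribosome that translates mitochondrial messages, were all tested, 76 in number. A difference from the cytosolic genes was not tested. In knockout cells 0 rose and 5 fell (limma, adjusted p under 0.05), where 6.73% of all genes rose and 4.45% fell. At an unadjusted p under 0.05, 29 were lower and 0 higher. Over all 11815 genes 1589 were lower and 1632 higher, 27.3% in either direction. Of the changes 69 of 76 were negative, against 6115 of 11815 over all genes, and the median was -0.43, against -0.02. In control cells 0 rose and 2 fell, where 4.21% of all genes rose and 2.56% fell. At an unadjusted p under 0.05, 17 were lower and 0 higher. Over all 11815 genes 1393 were lower and 1361 higher, 23.3% in either direction. Of the changes 67 of 76 were negative, against 6282 of 11815, and the median was -0.33, against -0.04. Mrpl34 fell in both, by 0.95 ± 0.20 in knockout cells (SE, adjusted p = 0.0168) and by 0.86 ± 0.20 in control cells (adjusted p = 0.0347). Mrpl12, a large subunit protein known to bind the mitochondrial RNA polymerase, fell by 1.20 ± 0.33 in knockout cells (adjusted p = 0.0435), and Mrpl48 fell by 0.98 ± 0.21 in control cells (adjusted p = 0.0239). Mrpl55, Mrpl33 and Mrps25 fell by 1.10, 0.96 and 0.91 in knockout cells. The date medians were -0.09, -0.70 and -0.55 in knockout and -0.18, -0.46 and -0.31 in control cells, negative on every date. In the 3 other comparisons 0 of 76 passed by limma, and 3 without treatment and 4 with treatment had an unadjusted p under 0.05 for knockout against control, where 2.22% and 9.72% of all genes did, and 0 for the difference of responses, where 2.46% did.

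Rps20 shows how far sets of a single gene can lie apart. The set that stood for the gene read 128, 81.8 and 82.2 units on the knockout treated arrays, against 192, 56.4 and 298 on the knockout untreated arrays, while another set read 15685, 44782 and 15771 against 12868, 37670 and 16178. On date 2 the standing set was 0.486 times and the other set 3.73 times its level on the other dates.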
